A study of Sus scrofa with 6 samples.

Results

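The microRNAs (miRNAs) miR-15a, miR-15b, miR-16, miR-195, miR-497, miR-103 and miR-107 form a superfamily of short RNAs with related seeds, the stretch near the 5′ end that pairs with target messages. They were chosen by name, as every porcine miRNA in the table whose name without arm or copy number is one of these. The rule found 7 members among 898 listed miRNAs, 280 with a miRBase-style porcine name and 618 with a predicted identifier. All 7 have a single row, none has an arm suffix, and none has values identical to another row. Small RNA was sequenced from skin of pigs (Sus scrofa) of the small Xiang breed from China, in 3 libraries from white skin (S02, S06 and S07) and 3 from black skin (S03, S04 and S05). All 6 samples share the breed, the tissue and storage in RNAwait, a preservative, and differ in the labels only in skin colour. The labels used here give no animal, age, sex, body site or batch, so the spread behind each p-value is that between these samples and may be technical.

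The first 5 of these miRNAs share a seed and are known as brakes on cell division and as promoters of cell death, through cyclins D and E, CDK6 and BCL2. miR-15a and miR-16 became known as tumour suppressors lost in chronic lymphocytic leukaemia, and miR-195 and miR-497 are known for halting division in maturing heart and other tissues. miR-103 and miR-107 carry a seed that overlaps the first one in a shifted frame. They are known for lowering DICER1, the enzyme that matures miRNAs, and caveolin-1 in insulin signalling, and have been described in stem-like cells of the corneal epithelium. The series set out to find miRNAs that affect pigment formation by melanocytes, and black against white skin is the comparison its labels give.

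Values are RPM, reads scaled to a total of 1e+06 over all listed miRNAs. The libraries held 6454685 to 10165949 reads, so 1 read is worth 0.0984 to 0.155 RPM. The scarcest member, ssc-miR-15a, had 156 to 645 reads per library and the most abundant, ssc-miR-103, had 13041 to 22088, so every member stood far above the 3 reads that a count of 0 allows. ssc-miR-205, the defining miRNA of the epidermis, was abundant at 11480 to 22510 RPM. However, 6 of the 8 names in the keratinocyte marker list had no product among the miRNAs with a miRBase-style name. Marker lists were matched by name alone, so a product under a predicted identifier would be missed. Because this is whole skin, fewer cells of a type and less RNA per cell cannot be told apart.

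The precursors lie at 6 loci of Sscrofa11.1, by RefSeq annotation of that build. MIR15A (chromosome 11, 17757463 to 17757541) and a precursor of miR-16 (MIR16-2, 17757606 to 17757684) lie 64 bases apart, outside annotated genes and 26558 bases from KCNRG. MIR15B (chromosome 13, 100083172 to 100083269) and the second precursor of miR-16 (MIR16-1, 100083329 to 100083405) lie 59 bases apart within SMC4, a condensin subunit gene. Both miR-16 precursors feed the single row of ssc-miR-16. MIR195 (chromosome 12, 52422039 to 52422118) and MIR497 (52422329 to 52422408) lie 210 bases apart within the long non-coding RNA LOC102161115. C12H17orf49 lies 100 bases from MIR195 on 1 side, and BCL6B 4996 bases from MIR497 on the other. The other set sits in genes of pantothenate kinases, the enzymes that start coenzyme A synthesis. MIR103-1 lies within PANK3 (chromosome 16, 55329442 to 55329523), MIR103-2 within PANK2 (chromosome 17, 31808837 to 31808916) and MIR107 within PANK1 and the overlapping long non-coding RNA LOC110256785 (chromosome 14, 101420743 to 101420829). The table does not show which of its 2 precursors gave a read of ssc-miR-103 or of ssc-miR-16. As near-identical family members can exchange reads, and as the authors' treatment of such reads is not given in the sources used here, the split between ssc-miR-103 and ssc-miR-107 and between ssc-miR-15a and ssc-miR-15b is uncertain.

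The 7 members together held 0.321% to 0.507% of the reads of a library, and ssc-miR-103 alone held more than all the others together. Its share of the family was 54.2% in white and 57.9% in black skin, and it ranked 36 of the 280 named miRNAs by mean RPM over the 6 libraries. Next came ssc-miR-16 (rank 67), ssc-miR-195 (70), ssc-miR-15b (85), ssc-miR-107 (92), ssc-miR-497 (119) and ssc-miR-15a (149). RPM of mature miRNAs need no length correction, but different sequences can be captured with different efficiency, so the order is that of reads.

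Some steps in this order were clear and others were not. ssc-miR-103 exceeded ssc-miR-16 in 6 of 6 libraries with a mean ratio of 3.90, and the ranges of the pair did not overlap. ssc-miR-107 likewise exceeded ssc-miR-497 in 6 of 6 libraries, without overlap of the ranges and with a mean ratio of 2.48. ssc-miR-16 and ssc-miR-195 did not differ beyond their spread, since ssc-miR-16 was the higher one in 4 of 6 libraries and the mean ratio was 1.15. ssc-miR-15b and ssc-miR-107 overlapped too, with ssc-miR-15b higher in 5 of 6. ssc-miR-195 lay above ssc-miR-15b, and ssc-miR-497 above ssc-miR-15a, in 6 of 6 libraries each, although the ranges over libraries overlapped.

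**Figure D1:**
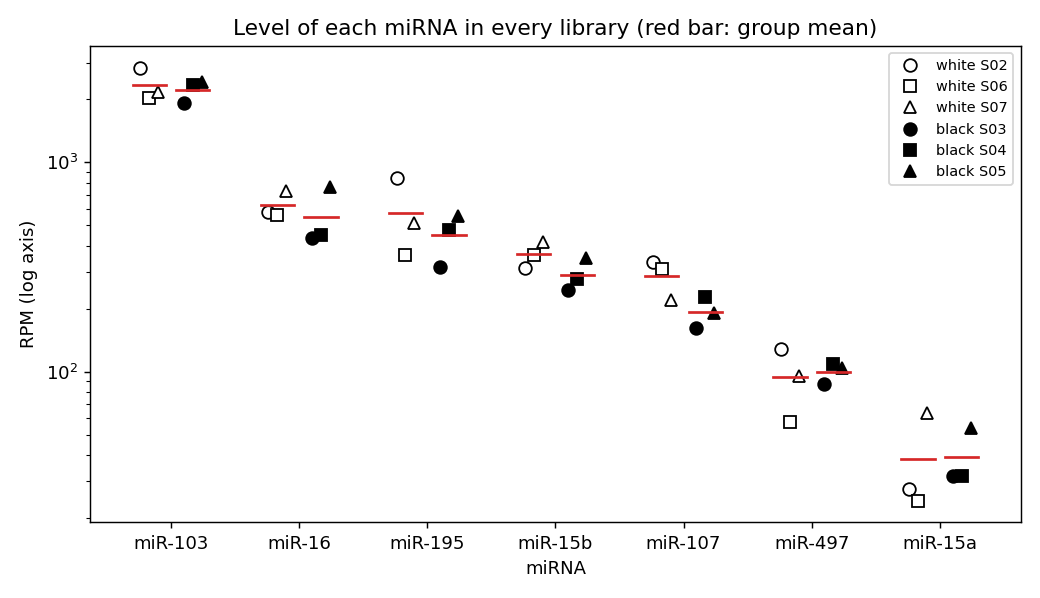
RPM (log axis) of each of the 7 miRNAs in the 3 white libraries (open symbols) and the 3 black libraries (filled symbols), ordered by mean, with group means as red bars. For every member the open and filled symbols overlap, and ssc-miR-103, between 1926 and 2838 RPM, stands above all others.

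No member of the family passed the test between black and white skin. The call rule was an adjusted p under 0.05 in limma over all 454 tested miRNAs, on the log2(RPM + 1) scale with Benjamini-Hochberg adjustment. All 7 members passed the filter on low counts, and 0 of 7 were called, against 7.05% of all tested miRNAs. The count was also 0 of 7 with edgeR (background 6.61%), DESeq2 (11.7%) and limma-voom (6.83%) on the recovered reads. At an unadjusted p under 0.05 limma gave 1 of 7, ssc-miR-107, against a background of 25.6%. None of the 7 had groups without overlap, against 27.3% of all tested miRNAs. The differences, black minus white, were below 0 for 5 members and above 0 for 2, with a median of -0.22. The median was 0.002 over all tested miRNAs and -0.05 over the 242 tested ones with a miRBase-style name, as all members have. With 7 members from 6 loci, the median of the members is given as a description.

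The intervals say how large a difference the data leave room for. For 4 members, ssc-miR-103, ssc-miR-16, ssc-miR-15b and ssc-miR-497, the 95% confidence interval lay within a 2-fold change in either direction. The narrowest was that of ssc-miR-103, from 0.711 to 1.29 times the white level on this scale. The intervals of ssc-miR-107 and ssc-miR-195 reached down to 0.471 and 0.483 times the white level, and that of ssc-miR-15a up to 2.02 times.

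**Figure D2:**
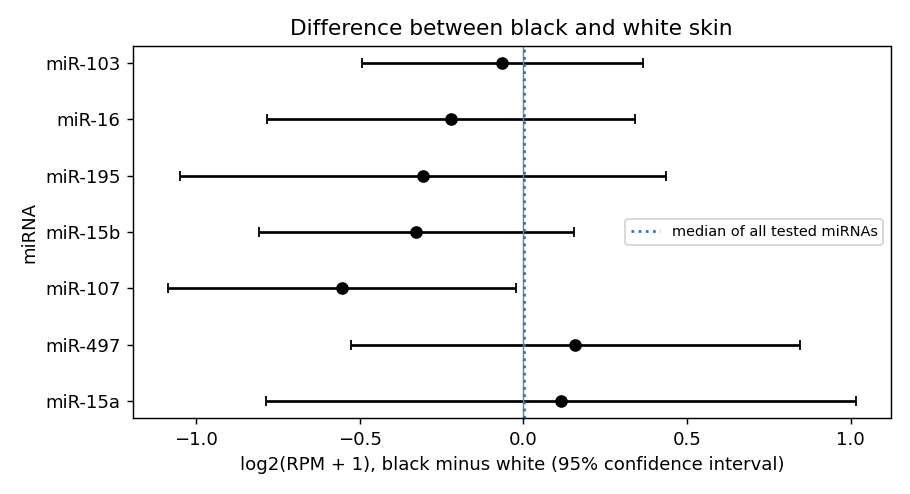
Difference on the log2(RPM + 1) scale, black minus white, for each of the 7 miRNAs (points) with its 95% confidence interval from limma (bars), and the median of all 454 tested miRNAs (dotted line). Of the 7 intervals, that of ssc-miR-107 alone, from -1.09 to -0.02, excludes 0 before adjustment; the small differences of ssc-miR-103 and ssc-miR-15a change sign with upper-quartile scaling and with edgeR or DESeq2, respectively.

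Of the cell-cycle set, miR-16 had the highest mean, with miR-195 above it in S02 and S04. ssc-miR-16 stood at 581.5 RPM in S02, 558.8 in S06 and 730.9 in S07 from white skin, and at 437.1 in S03, 451.9 in S04 and 760.3 in S05 from black skin. The lowest values are those of S03 and S04 and the highest is that of S05, so the black group spans the white one. The means were 624 ± 93.5 and 550 ± 183 RPM (SD, n = 3), a difference of -0.22 (standard error 0.25, limma adjusted p = 0.658) that ranged from -0.48 without S05 to -0.08 without S03.

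ssc-miR-15b, the mate of miR-16 in SMC4, measured 312.2, 361.0 and 417.3 RPM in S02, S06 and S07, against 245.8, 277.0 and 348.5 RPM in S03, S04 and S05. S03 and S04 lie below every white library, and S05 lies within the white range. The means were 364 ± 52.6 and 290 ± 52.7 RPM (SD, n = 3), with a difference of -0.33 (standard error 0.21, limma adjusted p = 0.390).

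ssc-miR-15a, the mate of miR-16 on chromosome 11, was the scarcest member. It measured 27.4, 24.2 and 63.4 RPM in S02, S06 and S07, against 31.8, 31.8 and 53.5 RPM in S03, S04 and S05. S07 and S05 are high, 1 library in each group, and the other 4 lie together, so the group means nearly coincided at 38.3 ± 21.8 and 39.0 ± 12.6 RPM (SD, n = 3). The difference of 0.12 (standard error 0.40, limma adjusted p = 0.896) had the largest standard error of the family, and it ranged from -0.14 without S06 to 0.54 without S07.

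miR-195 and miR-497, whose precursors lie in 1 long non-coding RNA, both had a larger SD in white than in black skin. ssc-miR-195 measured 845.9, 361.3 and 514.2 RPM in S02, S06 and S07, against 315.9, 472.5 and 555.3 RPM in S03, S04 and S05. S02 is far above the other 5 libraries. The means were 574 ± 248 and 448 ± 122 RPM (SD, n = 3; difference -0.31, standard error 0.33, limma adjusted p = 0.649), and without S02 the difference was 0.02.

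ssc-miR-497 measured 127.7, 57.6 and 95.7 RPM in S02, S06 and S07, against 86.9, 108.7 and 104.3 RPM in S03, S04 and S05. Both the highest and the lowest value are white, and the black libraries lie between them. The means were 93.67 ± 35.1 and 99.96 ± 11.5 RPM (SD, n = 3; difference 0.16, standard error 0.30, limma adjusted p = 0.791), and without S06 the difference was -0.15.

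The 5 members of this set summed to 1895, 1363 and 1821 RPM in S02, S06 and S07, and to 1117, 1342 and 1822 RPM in S03, S04 and S05. The black library S05 lies within the white range, while S03 and S04 lie below all white libraries. The means were 1693 ± 288 and 1427 ± 360 RPM (SD, n = 3), 1.19-fold lower in black skin (two-sided exact permutation p = 0.3, where 3 against 3 libraries allow no p below 0.1).

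In the other set, ssc-miR-103 had the smallest spread within groups of the family. It measured 2838, 2020 and 2173 RPM in S02, S06 and S07, against 1926, 2337 and 2425 RPM in S03, S04 and S05. S02 is the highest and S03 the lowest, and the other 4 interleave. The means were 2344 ± 435 and 2230 ± 267 RPM (SD, n = 3), a difference of -0.06 (standard error 0.19, limma adjusted p = 0.884), or 0.08 without S02. That spread, an SD of 0.22 on the log2 scale, was below the median of 0.34 over tested miRNAs, and 21.6% of them had a smaller one. That of ssc-miR-15a was 0.60, with 83.7% smaller.

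ssc-miR-107 came closest to the threshold. It measured 334.1, 307.8 and 218.9 RPM in S02, S06 and S07, against 162.4, 227.7 and 190.9 RPM in S03, S04 and S05. S02 and S06 lie above all black libraries, and S07 lies just below S04, which is the single overlap. The means were 287 ± 60.4 and 194 ± 32.8 RPM (SD, n = 3), 1.48-fold lower in black skin. Its log2(RPM + 1) differed by -0.56 (standard error 0.24, limma, unadjusted p = 0.0426, adjusted p = 0.176). The adjusted p ranged from 0.0962 to 0.472 over the other settings, and the difference stayed below 0 in each of these. Summed, miR-103 and miR-107 gave means of 2631 ± 470 and 2423 ± 291 RPM for white and black (SD, n = 3), with an exact permutation p of 0.6.

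Ratios within a library do not depend on how it was scaled, and 6 were taken between cluster mates and close relatives. In 2 of 6 the groups did not overlap, against 29.6% of the 102831 pairs that all tested miRNAs form and 37.7% of the 29161 pairs of tested miRNAs with a miRBase-style name, so the count is near the background. The first is miR-103 over miR-107. Its linear value was 8.50 in S02, 6.56 in S06 and 9.93 in S07, and it was 11.9 in S03, 10.3 in S04 and 12.7 in S05. Every black library thus had more miR-103 per miR-107 than any white one. The log2 ratio had a mean of 3.03 ± 0.30 in white and 3.53 ± 0.16 in black libraries (SD, n = 3), a difference of 0.49 with a standard error of 0.20. By a two-sided exact permutation test p = 0.1, the limit of this design, and adjusted over the 6 ratios p = 0.3, so the difference did not pass.

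The second is miR-195 over miR-497, the mates on chromosome 12. This ratio was 6.63, 6.27 and 5.37 in S02, S06 and S07, and 3.64, 4.35 and 5.32 in S03, S04 and S05. The black libraries all lie lower, though S05 and the white library S07 nearly touch. The log2 ratio averaged 2.59 ± 0.16 for white and 2.12 ± 0.28 for black libraries (SD, n = 3), a difference of -0.47 with a standard error of 0.18 (two-sided exact permutation p = 0.1, adjusted p = 0.3). Neither miRNA alone separated the groups.

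The 4 other ratios overlapped. miR-16 outnumbered miR-15b by 1.55 to 2.18 times in every library, and the log2 ratio of miR-15b to miR-16 differed by -0.11 between the groups (standard error 0.15, exact permutation p = 0.5). miR-16 outnumbered miR-15a more and less evenly, by 11.5 to 23.1 times in white and 13.8 to 14.2 times in black skin. That log2 ratio had an SD of 0.53 in white and 0.03 in black skin (n = 3), with the white library S07 apart from S02 and S06. Its difference of 0.34 and that of 0.44 for miR-15a over miR-15b did not pass (exact permutation p = 0.4 and 0.3, adjusted p = 0.6 for both). For miR-16 over miR-195 the difference was 0.09 (exact permutation p = 1), and S02 was the white library with more miR-195 than miR-16.

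**Figure D3:**
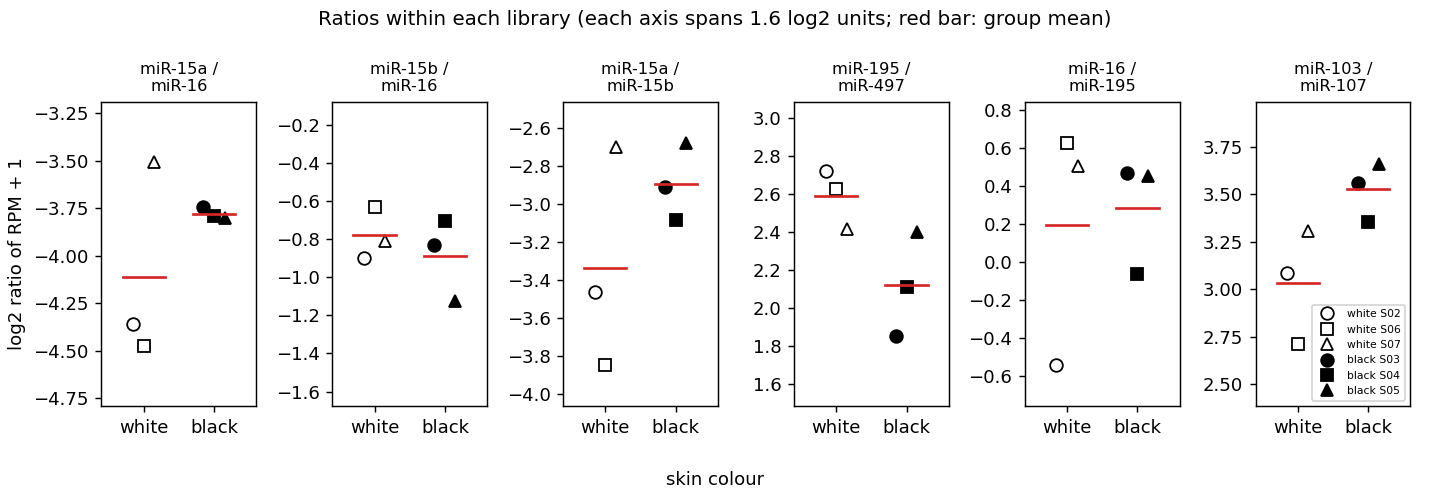
Log2 ratio of RPM + 1 between members of the family within each library, for the 3 white (open) and 3 black (filled) libraries, with group means as red bars; the 6 panels have the same height of scale and different origins. The groups separate for miR-195 over miR-497 and for miR-103 over miR-107 and overlap in the other 4 panels.

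The members did not vary as 1 group across libraries. S02 gave the highest value of 4 members (ssc-miR-103, ssc-miR-107, ssc-miR-195 and ssc-miR-497), S07 of 2 (ssc-miR-15a and ssc-miR-15b) and S05 of 1 (ssc-miR-16), while S03 gave the lowest of 5. Likeness of pattern was measured as the root mean square distance between log2(RPM + 1) profiles, each centred on its mean over the 6 libraries. A distance of 0 means the same pattern. The profiles were not scaled to equal spread, so a miRNA of small spread can lie near without rising and falling alike. By this measure ssc-miR-15b lay 0.16 from ssc-miR-16 and was the third nearest of 241 named miRNAs to it. From the other side, ssc-miR-16 ranked 7 for ssc-miR-15b. ssc-miR-195 and ssc-miR-497 lay 0.30 apart, with rank 5 for ssc-miR-195 and 29 for ssc-miR-497. ssc-miR-103, from another locus and with the smallest spread within groups of the family, was nearer to each of them, at 0.28 and 0.24. ssc-miR-15a and ssc-miR-16 lay 0.35 apart, with rank 11 for ssc-miR-15a and 59 for ssc-miR-16. ssc-miR-103 and ssc-miR-107 lay 0.31 apart, with rank 97 for ssc-miR-103 and 51 for ssc-miR-107. The most distant pair was ssc-miR-15a and ssc-miR-107, at 0.75.

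Outside the family, the 3 nearest to ssc-miR-103 were ssc-miR-29a (0.087), ssc-miR-339 (0.089) and ssc-miR-125b (0.12), against a median of 0.39 over 235 named miRNAs. The 3 nearest to ssc-miR-16 were ssc-miR-362 (0.13), ssc-miR-17-5p (0.15) and ssc-miR-155-5p (0.17), against a median of 0.44. These distances rest on 6 libraries that all the miRNAs share.

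For 2 other members the nearest profiles, chosen here after their values were seen, included those of miRNAs known from particular cells. ssc-miR-107 lay 0.069 from ssc-miR-205 and 0.078 from ssc-miR-182, a miRNA of epithelia, closer than any other of 235 named miRNAs and closer than its relative ssc-miR-103. Next to these came ssc-miR-1343, at 0.13. Per 1000 reads of ssc-miR-205 there were 15.1, 13.7 and 14.7 reads of ssc-miR-107 in S02, S06 and S07, and 14.1, 13.7 and 13.1 in S03, S04 and S05. As ssc-miR-205 was picked for its nearness, this level proportion describes the choice. A two-sided exact permutation test between the groups gave p = 0.3, which is no separate result for a pair so chosen. Per 1000 reads of ssc-miR-205, those of ssc-miR-103 ranged from 89.7 to 168. ssc-miR-205 itself differed by -0.47 and ssc-miR-182 by -0.52 between black and white skin (limma, adjusted p = 0.204 and 0.138), beside -0.56 for ssc-miR-107. The summed keratinocyte markers, ssc-miR-205 and ssc-miR-429, ranged from 15360 to 23060 RPM in white and 11810 to 16940 RPM in black skin. Nearly all of this sum was ssc-miR-205, so it largely repeats the miRNA picked for its nearness. ssc-miR-429 was lowest in S02 (282.3 RPM), where ssc-miR-107 was highest, and spanned 301.8 to 385.8 RPM among black libraries. Its difference was also below 0 (-0.31, limma adjusted p = 0.546). The part of keratinocyte RNA in the level of ssc-miR-107 was not tested.

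ssc-miR-15a lay nearest to ssc-miR-146a-5p (0.17), a miRNA of inflammatory signalling, with a median of 0.59 over 235 named miRNAs. Next came ssc-miR-21 (0.23) and ssc-miR-324 (0.25). ssc-miR-15a and ssc-miR-146a-5p were both highest in S07 and S05, as were ssc-miR-21 and ssc-miR-324. ssc-miR-146a-5p is the most abundant of the 5 products in the leukocyte marker list, which summed to 3196, 2382 and 4860 RPM in S02, S06 and S07 and to 3954, 3087 and 5239 RPM in S03, S04 and S05. Of its 5 products ssc-miR-142-3p alone was called, higher in black skin (1.96, limma adjusted p = 0.0324), beside 7.05% of all tested miRNAs. The list's names miR-142, miR-150 and miR-155 are all present, and miR-223 had no product under a miRBase-style name. S07 and S05 also led their groups in the erythroid list of miR-451, miR-486 and miR-144, at 4914 and 4298 RPM, against 3989 and 1723 RPM in the other white libraries and 994.5 and 1271 RPM in the other black ones. The same libraries held the most reads of their groups, 10165949 in S07 and 8647930 in S05. They also led their groups in ssc-miR-15a, ssc-miR-15b and ssc-miR-16. The part of leukocyte RNA, erythroid RNA or depth in the levels of these members was not tested.

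**Figure D4:**
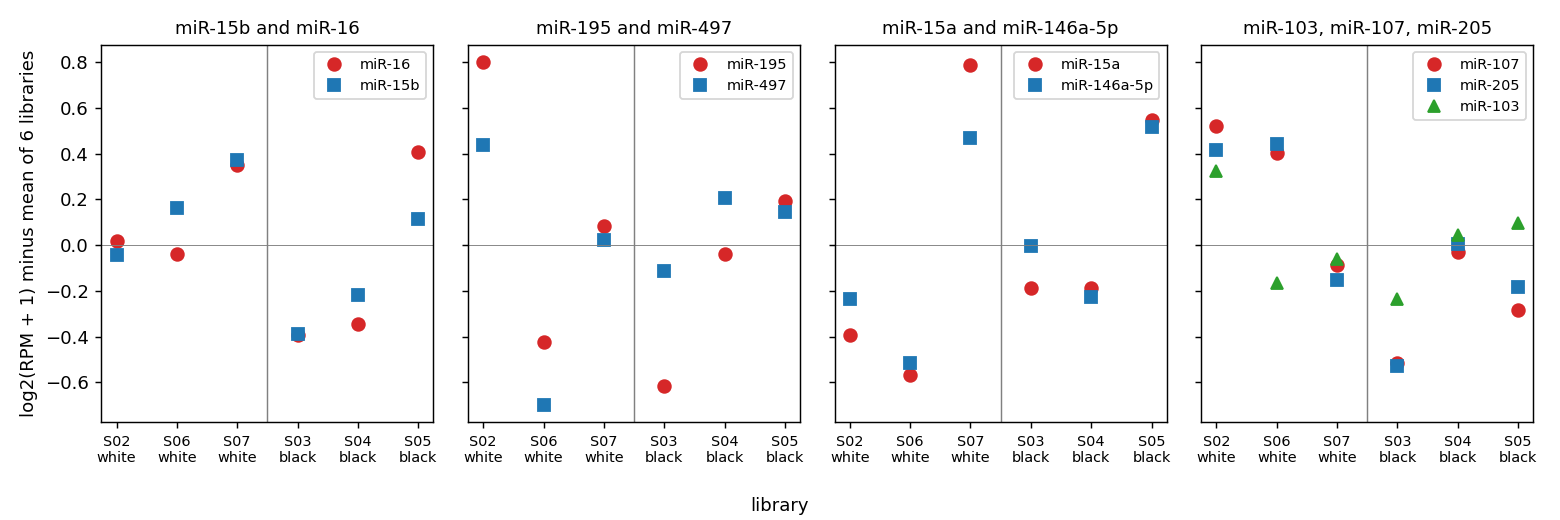
Log2(RPM + 1) minus its mean over the 6 libraries, for 4 groups of miRNAs; white libraries are left and black libraries right of the vertical line. Points of ssc-miR-107 and ssc-miR-205 nearly coincide (distance 0.069), those of ssc-miR-15b and ssc-miR-16 lie close (0.16), and those of ssc-miR-195 and ssc-miR-497 (0.30) lie farther apart.

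Sums of some other lists did not overlap between the groups, as was so for 27.3% of single tested miRNAs. Endothelial miR-126 summed to 17320 to 23900 RPM in white and 28990 to 35450 RPM in black skin, and smooth muscle miR-143 and miR-145 to 26730 to 34190 and 65000 to 84500 RPM, both without overlap, with 2 of 2 and 1 of 4 products called higher in black skin, where 7.05% of all tested miRNAs were called. The melanocyte list summed to 1131 to 1995 RPM in white and 722.1 to 959.5 RPM in black skin, also without overlap, with 1 of 4 products called, lower in black. That sum rests mostly on miR-221 and miR-222. Its product ssc-miR-204 lay the other way, at 57.7 to 71.1 RPM in white and 88.5 to 135.1 RPM in black skin (difference 0.82, limma adjusted p = 0.0804). The name miR-211 of this list had no product under a miRBase-style name.

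miRNAs with related seeds or targets were looked at beside the family. Of miR-424 and miR-503, which share or nearly share the seed of miR-15 and miR-16, ssc-miR-424-5p passed the filter. It was far scarcer than miR-16, at 1.37, 0.930 and 2.56 RPM in S02, S06 and S07, against 3.87, 4.36 and 4.51 RPM in S03, S04 and S05. All black libraries lie above all white ones, and the difference of 1.05 (standard error 0.30) missed the threshold (limma, adjusted p = 0.0723). ssc-miR-424-3p and ssc-miR-503 did not reach 2 RPM in any library and were not tested.

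Other miRNAs known to lower G1 cyclins or CDK6 gave 0 calls among 6 tested (limma), against 7.05% of all tested miRNAs, with a median of 0.26. Their sum, nearly all ssc-miR-26a, was 30230 to 50050 RPM in white and 50190 to 52830 RPM in black skin. These ranges did not overlap, as was so for 27.3% of single tested miRNAs. The white library S02 (50050) and the black library S03 (50190) nearly touch. ssc-miR-26a, the most abundant, was at 26680 to 45510 RPM in white and 46430 to 48640 RPM in black skin (difference 0.53, adjusted p = 0.148). ssc-miR-29a differed by -0.01, ssc-miR-34a by -0.23 and ssc-miR-29b by 0.71 (adjusted p = 0.976, 0.730 and 0.137).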

How the data were processed

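The authors deposited 1 table of RPM values for 6 small RNA libraries. The unit was inferred from the column sums of 1e+06. The submitters' processing notes list Bowtie (no version) and the genome build Sscrofa11.1 and state no role for either. The counting tool, the miRNA database and how reads matching several miRNAs were assigned: none is given in the sources used here. All 6 columns were used and 0 were left out. Dividing by the worth of 1 read gave whole numbers for 100% of values (tolerance 0.001), so reads were recovered. Counting limits cover counting error only, since PCR copies are not independent molecules.

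The main test contrasted black with white on log2(RPM + 1) by limma 3.58.1 (R 4.3.3), its trend option on, Benjamini-Hochberg adjusted over the 454 of 898 miRNAs that filterByExpr of edgeR 4.0.16 kept (minimum count 10, minimum total 15). A fold change on this scale is understated for scarce miRNAs. edgeR's quasi-likelihood test on the recovered reads called 30 of 454, DESeq2 1.42.0 called 53 and limma called 32. Single values were compared with two-sided exact permutation tests. Of the steps, the limma fit alone was tested on simulated data. In a chi-square test of reads the smallest value per degree of freedom of any pair of libraries was 165, so all 6 were kept. RefSeq gene records of Sscrofa11.1 gave the precursors of all 7 members. The arm ratios planned could not be formed, as no member has both arms listed.

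All members are named, and of 2 lists (seed relatives and cell-cycle miRNAs) up to 4 tested members each by mean RPM. The 3 nearest profiles are named for the most abundant member of each set, and those of ssc-miR-107 and ssc-miR-15a were added after their values were seen. The neural and striated muscle marker lists summed to 233.9 to 421.9 and 677.7 to 2017 RPM, with overlap between the groups. ssc-miR-9 and ssc-miR-9-1 had identical values in every library and both entered the neural sum, a repeat that may inflate it. Members and lists were chosen with earlier results of these data known. Alternatives covered scaling, predicted miRNAs, pseudocount, filter, test, trend and leaving out each library.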

Additional observations from a re-analysis of the deposited data

How the results depend on the processing

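The count of called members was 0 of 7 in all 12 other settings and in all 6 fits without 1 library. The differences of ssc-miR-107, ssc-miR-15b and ssc-miR-16 kept their sign in all 18. Without 1 library they ranged from -0.74 to -0.43, from -0.47 to -0.22 and from -0.48 (without S05) to -0.08 (without S03). Those of the other 4 members turned in some settings, and the cause was not tested. ssc-miR-103 turned to 0.015 with upper-quartile factors, and without 1 library ranged from -0.163 to 0.082 (above 0 without S02 or S03). ssc-miR-15a turned to -0.008 with edgeR and -0.040 with DESeq2, and ranged from -0.14 to 0.54 (below 0 without S02, S06 or S05). ssc-miR-195 ranged from -0.596 to 0.017 (above 0 without S02) and ssc-miR-497 from -0.15 to 0.42 (below 0 without S06). The summed miR-103 and miR-107 ranged from -358.8 to 63.3 RPM (above 0 without S02), and the sum of the other 5 members from -463.3 to -111.1 RPM. The log2 ratios of miR-103 to miR-107 (0.33 to 0.63) and of miR-195 to miR-497 (-0.61 to -0.33) kept their sign without each library, as did that of miR-15a to miR-16 (0.15 without S06 to 0.64 without S07) and of miR-15a to miR-15b (0.19 to 0.76, without the same libraries). Those of miR-15b to miR-16 (-0.198 to 0.011, above 0 without S05) and of miR-16 to miR-195 (-0.28 to 0.30, below 0 without S02 or S03) did not. A pseudocount does not enter sums of RPM, so those settings gave no value there. ssc-miR-15a had the fewest reads of the 7 members, down to 156 in S06.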
